A study of Equus caballus with 68 samples.

Results

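Stromal cells and the extracellular matrix they make were read here through 38 genes, chosen by symbol: the fibrillar collagens, other collagens, small leucine-rich proteoglycans, matricellular, elastic fibre and crosslinking proteins, contractile proteins, and the surface proteins and transcription factors of stromal cells. Of the 38 genes, 36 had a row among the 30371 genes listed, and ELN and TAGLN had none. RNA sequencing had been done on bone marrow mononuclear cells (BMNC) of 8 Thoroughbred horses aged 3 to 9 years, 2 of them mares (Moon and RimRun) and the others geldings. The cells were taken before culture (0 hours, 8 libraries) or after culture in undiluted fluid of the same horse, which was either normal synovial fluid (SF) or inflamed synovial fluid (ISF) from joints injected with lipopolysaccharide. Each fluid had 8 libraries at 96 hours and again at 6 days but 7 at 48 hours and 7 at 10 days, which makes 68 libraries in all, with Moon absent at 48 hours and Flash at 10 days. Every library came from a well of its own, so the libraries of a horse at successive times are different wells and not the same cells followed over time. The fluid was centrifuged to deplete it of cells before use, and the wells were seeded with cells of the marrow aspirate. Whether any cells of the joint remained in the fluid was not tested.

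Bone marrow holds rare stromal cells, also called mesenchymal stromal cells, that adhere to plastic, divide and spread as fibroblast-like colonies when marrow is cultured. Such cells secrete collagen I, collagen III and collagen VI together with the proteoglycans that bind and space collagen fibrils, the enzymes that crosslink them and the microfibril proteins of elastic fibres, while monocytes and macrophages make little fibrillar collagen. In RNA from a whole well, more stromal cells and more RNA per stromal cell cannot be told apart.

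The deposited values were GeTMM, which scale the reads on a gene by its length and between libraries and can be compared between genes as levels per length. A library held 15.7 to 35.97 M reads on genes (median 22.3 M), and 1 read on a gene of 1 kilobase was worth 0.0337 to 0.0979 GeTMM. Levels under about 0.1 GeTMM therefore rest on a handful of reads, and so do somewhat higher levels of short genes. Of the 68 libraries, 66 resembled the other libraries of their labelled horse most closely over 200 profile genes. The 2 exceptions were the ISF libraries labelled Dealings and Dreamer at 96 hours, each of which was closest to the other horse (r = 0.958 and 0.913), and the 96-hour tests are given below with and without them. The SF library of Moon at 6 days also stood apart, with 2321940 GeTMM summed over all genes against 817795 to 1458340 in the others. The macrophage list (6 genes) summed to 224 to 346 GeTMM at 0 hours and to 10685 to 27462 GeTMM in the SF libraries at 10 days, and the neutrophil precursor list (4 genes) to 10182 to 19262 GeTMM at 0 hours and 1.90 to 1418 GeTMM in those SF libraries, so that macrophage genes were abundant in all cultures and marrow precursor genes before culture.

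Stromal and matrix genes appeared late, in some wells and not in others. At 0 hours 6 to 11 of the 36 genes reached 1 GeTMM (median 7.5), and at 48 hours 6 to 8 did in SF and 5 to 7 in ISF. In SF the well of Dealings came first, with 17 genes at 96 hours, and its later wells held 21 genes at 6 days and 27 at 10 days. The wells of Lurie went from 5 genes at 96 hours to 29 at 6 days and then 33 at 10 days, and the well of Flash held 28 at 6 days, its last time point. The wells of Dreamer held 6, 8 and 29 genes at the same times, and those of RimRun 6, 7 and 16. Catnip, Moon and Ollie ended at 7 genes each in SF at 10 days, although Ollie had 13 at 96 hours. In ISF the counts stayed between 4 and 12 genes from 96 hours on, except in the well of Ollie at 6 days with 20 and the well of Moon at 10 days with 21. Ollie's ISF well at 10 days held 5 genes. The horses with high counts in ISF were thus not those with high counts in SF at the same time, and Moon held 7 genes in its SF well at 10 days.

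**Figure D1:**
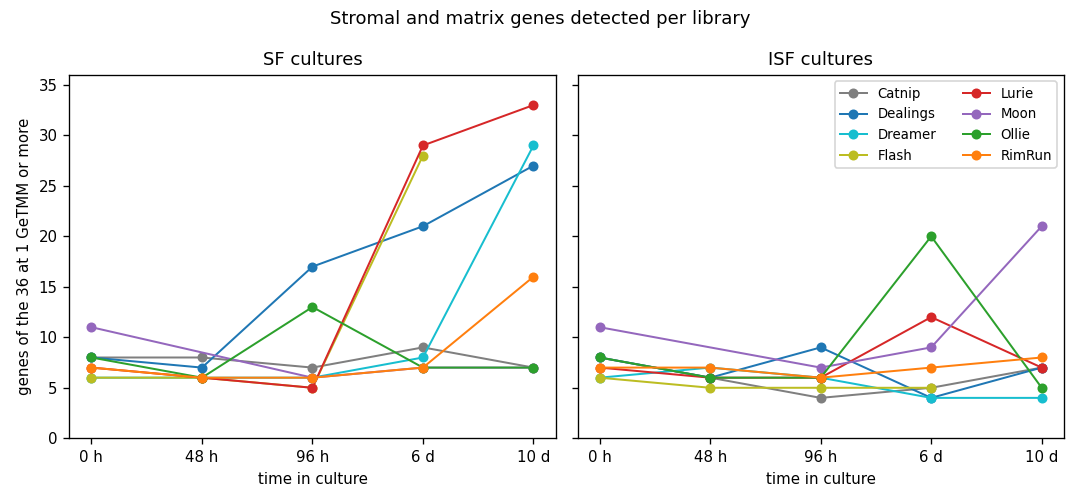
Number of the 36 stromal and matrix genes at 1 GeTMM or more (vertical axis) in each library by time in culture (horizontal axis), for SF cultures on the left and ISF cultures on the right, with 1 line for each horse joining separate wells. At 10 days the SF wells range from 7 to 33 genes and the ISF wells from 4 to 21.

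The fibrillar collagens showed the spread at 10 days most fully. COL1A1, which encodes the main chain of collagen I, was at 0.41 GeTMM in the SF well of Catnip, 34.4 in Dealings, 92.0 in Dreamer, 1359 in Lurie, 0.063 in Moon, 0.93 in Ollie and 6.66 in RimRun. These levels rest on between 5 reads (Moon) and 113009 reads (Lurie). In the ISF wells COL1A1 was at 0.014 GeTMM in Catnip, 0.047 in Dealings, 0.032 in Dreamer, 0.23 in Lurie, 13.6 in Moon, 0.044 in Ollie and 0.071 in RimRun. The order of the horses therefore differed between the fluids, Lurie and Dreamer being highest in SF and Moon in ISF, where the other 6 horses were at 0.23 GeTMM or less.

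COL1A2, the second chain of collagen I, was at 0.60 GeTMM in Catnip, 30.9 in Dealings, 138 in Dreamer, 1039 in Lurie, 0.33 in Moon, 0.75 in Ollie and 8.40 in RimRun in SF. In ISF it was at 0.047 GeTMM in Catnip, 0 in Dealings, 0.15 in Dreamer, 0.25 in Lurie, 12.1 in Moon, 0.032 in Ollie and 0.24 in RimRun. Both chains of the protein thus gave the same order of wells at the top. COL3A1, the chain of collagen III, ranged from 0.013 to 986 GeTMM in SF (median 7.31) and from 0.012 to 6.72 in ISF (median 0.060). COL5A1, a minor chain that helps to start collagen I fibrils, ranged from 0.14 to 154 GeTMM in SF (median 1.75) and from 0 to 2.92 in ISF (median 0.034). COL5A2, its partner chain, did not keep to this order: it was at 4.81 GeTMM in the SF well of Moon, where COL1A1 was near 0, and at 8.83 in the ISF well of RimRun and 3.47 in that of Lurie. COL11A1, a cartilage-type minor chain, was highest in the ISF well of Moon (1.41 GeTMM, 135 reads) and reached 0.44 GeTMM in the SF well of Lurie.

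**Figure D2:**
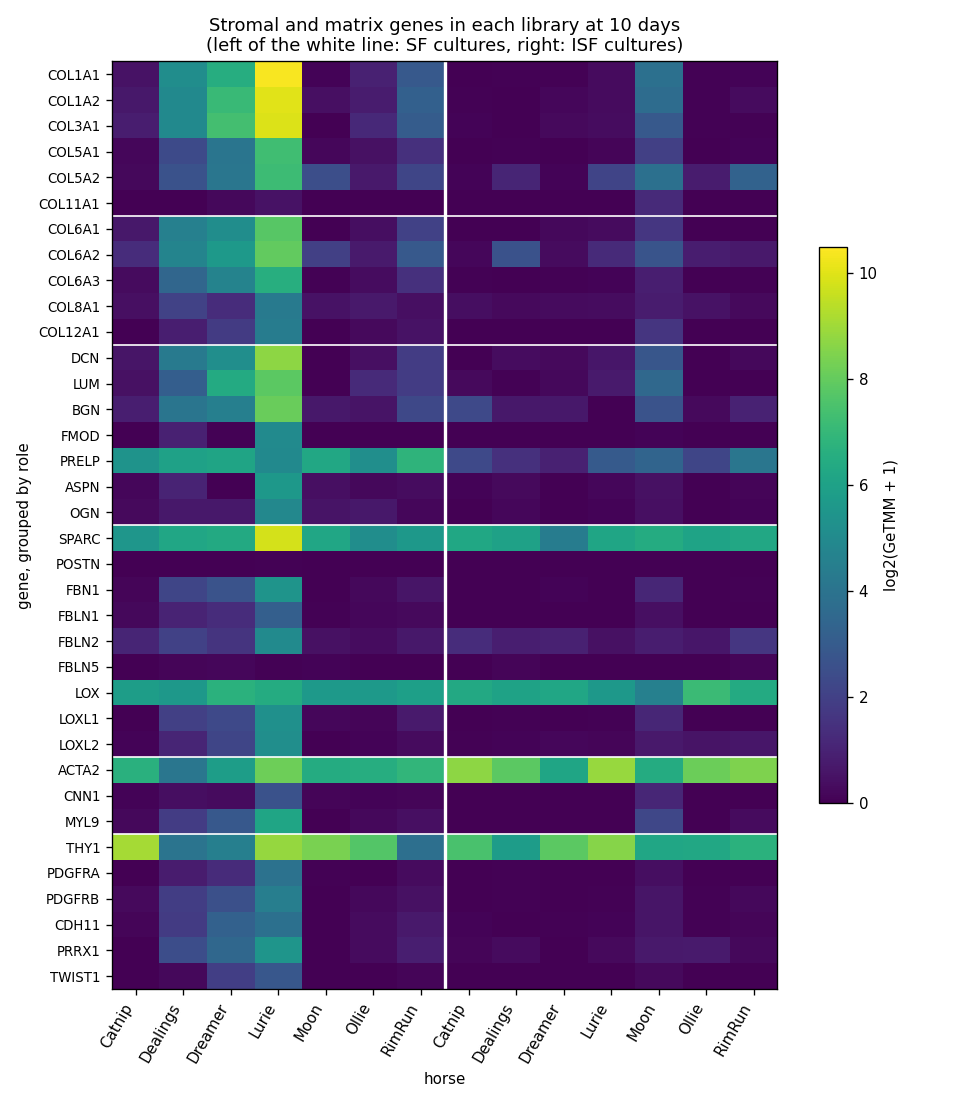
Levels of the 36 stromal and matrix genes as log2(GeTMM + 1) (colour) in the 14 libraries at 10 days, genes in rows grouped by role and horses in columns, SF to the left of the white line and ISF to its right. The SF wells of Lurie, Dreamer and Dealings and the ISF well of Moon are bright over most genes, while SPARC, LOX, ACTA2 and THY1 are bright in all 14 libraries and PRELP in the 7 SF wells.

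Collagen VI, a beaded filament network around cells, followed collagen I. COL6A2 was at 1.51 GeTMM in Catnip, 25.6 in Dealings, 49.97 in Dreamer, 254 in Lurie, 2.98 in Moon, 0.69 in Ollie and 6.65 in RimRun in SF, and at 0.14 in Catnip, 5.23 in Dealings, 0.24 in Dreamer, 1.40 in Lurie, 5.69 in Moon, 0.81 in Ollie and 0.64 in RimRun in ISF. COL6A1 was at 0.58 GeTMM in Catnip, 22.6 in Dealings, 34.9 in Dreamer, 217 in Lurie, 0 in Moon, 0.31 in Ollie and 3.03 in RimRun in SF, and at 2.14 in Moon and 0.25 or less in the other 6 ISF wells. The ISF well of Dealings thus held COL6A2 at a level close to that of Moon, with COL6A1 listed at 0. COL6A3, a much longer chain, ranged from 0.034 to 95.3 GeTMM in SF and from 0 to 0.83 in ISF. COL8A1, a short-chain collagen of vessel walls and activated mesenchymal cells, and COL12A1, a fibril-associated collagen, were at 18.5 and 20.5 GeTMM in the SF well of Lurie and at 3.26 or less in every other well at 10 days.

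Among the small leucine-rich proteoglycans, which coat collagen fibrils, DCN (decorin) was at 0.53 GeTMM in Catnip, 19.2 in Dealings, 35.6 in Dreamer, 422 in Lurie, 0 in Moon, 0.34 in Ollie and 2.61 in RimRun in SF. In ISF it was at 0 in Catnip, 0.26 in Dealings, 0.20 in Dreamer, 0.54 in Lurie, 6.05 in Moon, 0 in Ollie and 0.18 in RimRun. LUM (lumican) and BGN (biglycan) had the same high wells in SF, with 85.4 and 22.0 GeTMM in Dreamer and 232 and 275 in Lurie, whereas BGN was also at 4.01 GeTMM in the ISF well of Catnip, where DCN was listed at 0. FMOD (fibromodulin), ASPN (asporin) and OGN (osteoglycin) separated Lurie from the others most sharply: they stood at 31.1, 47.99 and 28.6 GeTMM in the SF well of Lurie and at 1.09 GeTMM or less in every other library at 10 days.

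PRELP, a proteoglycan of the same family that links collagen to basement membrane, behaved otherwise. In SF at 10 days it was at 40.8 GeTMM in Catnip, 64.1 in Dealings, 69.4 in Dreamer, 30.4 in Lurie, 78.1 in Moon, 35.0 in Ollie and 113 in RimRun, and Lurie, the highest well for most of these genes, was the lowest here. In ISF it was at 4.05 GeTMM in Catnip, 1.75 in Dealings, 0.97 in Dreamer, 6.95 in Lurie, 9.33 in Moon, 3.53 in Ollie and 16.6 in RimRun. The groups did not overlap.

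Of the matricellular, elastic fibre and crosslinking genes, SPARC and LOX were present in every culture. SPARC (osteonectin), a collagen-binding protein that many cell types secrete, was at 45.4 GeTMM in Catnip, 74.1 in Dealings, 81.4 in Dreamer, 906 in Lurie, 73.4 in Moon, 34.3 in Ollie and 47.5 in RimRun in SF, and at 76.2 in Catnip, 62.7 in Dealings, 20.5 in Dreamer, 72.1 in Lurie, 85.8 in Moon, 67.7 in Ollie and 77.1 in RimRun in ISF. Apart from Lurie in SF the fluids held like ranges. LOX (lysyl oxidase), which crosslinks collagen and elastin, was at 56.0 GeTMM in Catnip, 47.5 in Dealings, 103 in Dreamer, 85.8 in Lurie, 50.4 in Moon, 50.6 in Ollie and 60.1 in RimRun in SF, and at 80.9 in Catnip, 65.1 in Dealings, 74.2 in Dreamer, 47.9 in Lurie, 23.1 in Moon, 141 in Ollie and 84.7 in RimRun in ISF. LOX was thus lowest in the ISF well in which collagen I was highest. Its relatives LOXL1 and LOXL2 kept to the collagen order, with 38.03 and 35.8 GeTMM in the SF well of Lurie and 4.05 or less in all other wells. FBN1 (fibrillin, the core of microfibrils) ranged from 0.019 to 41.7 GeTMM in SF and FBLN1 (fibulin) from 0.030 to 8.18. FBLN2 was at 31.2 GeTMM in the SF well of Lurie and between 0.26 and 3.11 in the other 13 libraries. POSTN (periostin), a product of fibroblasts and osteoblasts, had 11 reads in all 68 libraries together, 2 of them in the SF well of Lurie, and FBLN5 had 70 reads in all.

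Among the contractile genes, ACTA2 (smooth muscle actin) was at 101 GeTMM in Catnip, 16.4 in Dealings, 57.0 in Dreamer, 291 in Lurie, 86.0 in Moon, 93.2 in Ollie and 121 in RimRun in SF. In ISF it was at 422 GeTMM in Catnip, 233 in Dealings, 71.2 in Dreamer, 467 in Lurie, 86.7 in Moon, 281 in Ollie and 351 in RimRun, higher than in the SF well of the same horse in 7 of 7 horses. Actin genes are near-identical in coding sequence, and how reads shared between them were counted makes the level of ACTA2 uncertain. MYL9, a regulatory light chain of smooth muscle myosin, was at 0.18 GeTMM in Catnip, 2.62 in Dealings, 6.32 in Dreamer, 71.9 in Lurie, 0 in Moon, 0.18 in Ollie and 0.36 in RimRun in SF. In ISF it was at 3.77 GeTMM in Moon, 0.22 in RimRun and 0 in the other 5 wells. CNN1 (calponin) reached 5.29 GeTMM in the SF well of Lurie and 1.19 in the ISF well of Moon, and 0.30 or less elsewhere at 10 days. ACTA2 was therefore abundant in wells in which the other contractile genes were near 0.

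THY1 (CD90) is a surface protein of stromal cells and, in several species, also of lymphocytes and marrow progenitors. It was at 550 GeTMM in Catnip, 15.3 in Dealings, 21.9 in Dreamer, 460 in Lurie, 333 in Moon, 208 in Ollie and 13.2 in RimRun in SF, and at 178 in Catnip, 55.4 in Dealings, 230 in Dreamer, 383 in Lurie, 73.7 in Moon, 76.99 in Ollie and 104.3 in RimRun in ISF. Its order in SF was not that of the collagens: Lurie, with the most COL1A1, was second, Dreamer and Dealings were low, and RimRun was lowest. Before culture it was at 3105 to 6009 GeTMM, when COL3A1 was at 0.070 GeTMM or less. The neutrophil precursor list (ELANE, MPO and others) summed to 1418 GeTMM in the SF well of Catnip, 530 in Moon, 290 in Ollie, 149 in Lurie, 114 in RimRun, 40.4 in Dreamer and 1.90 in Dealings at 10 days, and the T cell list (CD3D and others) to 199 GeTMM in Catnip, 195 in Dreamer, 131 in Lurie, 103 in Dealings, 84.8 in Ollie, 42.3 in Moon and 23.5 in RimRun. The part of these cells in the THY1 level was not tested. PRRX1, a transcription factor of limb and stromal mesenchyme, was at 0 GeTMM in Catnip, 4.61 in Dealings, 10.4 in Dreamer, 43.9 in Lurie, 0 in Moon, 0.25 in Ollie and 0.84 in RimRun in SF, and between 0 and 0.70 in ISF. PDGFRA and PDGFRB, the receptors for platelet-derived growth factor, reached 14.8 and 21.7 GeTMM in the SF well of Lurie, CDH11, an adhesion protein of fibroblasts, 13.7 and TWIST1, another mesenchymal transcription factor, 6.16, and each had its second highest SF level in Dreamer.

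Across the 36 genes, Lurie was the highest SF well at 10 days for 32, with a median of 8.12 times the second well and 82.6% of the sum over the 7 wells. In ISF, Moon was the highest well for 28 of the 35 genes above 0, with a median of 8.57 times the second well, where that was above 0, and 86.7% of the sum. Apart from SPARC, LOX, ACTA2, THY1 and PRELP, 31 genes were left, and for 26 of them Lurie, Dreamer and Dealings were the 3 highest SF wells. RimRun came next for 22 of these 26. The median level of the 31 genes was 38.03 GeTMM in Lurie, 4.96 in Dreamer, 2.99 in Dealings, 0.52 in RimRun, 0.22 in Ollie, 0.16 in Catnip and 0.030 in Moon in SF, and 1.16 in Moon and 0.083 or less in the other 6 wells in ISF. Moon was higher in its ISF than in its SF well for 28 of the 31. Reads of the 36 genes made up 2.25% of the reads on genes in the SF well of Lurie, 0.328% in that of Dreamer and 0.0446% to 0.116% in the other 5, against 0.0333% to 0.0754% in the ISF wells. These shares include SPARC, LOX, ACTA2, THY1 and PRELP, and THY1 alone had 5691 of the 16432 reads in the SF well of Catnip. Before culture, when THY1 was high, the shares were 0.129% to 0.216%, so low shares do not measure the collagen genes.

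Whether the fluids differed was tested with limma on log2(GeTMM + 1) over 14570 genes, of which 29 were stromal or matrix genes. The other 7 (COL11A1, FMOD, ASPN, POSTN, FBLN5, CNN1 and TWIST1) did not reach 0.5 GeTMM in 7 libraries. Of the 29, 13 would have passed without any SF library and 16 needed SF libraries to pass, so the test of those 16 is not independent of the fluid in which they were high, and counts over the 29 genes are given as a description. At 10 days 22 of the 29 were called lower in ISF at an FDR (Benjamini-Hochberg false discovery rate) below 0.05 and 0 higher, where 10.8% of all tested genes were called lower and 9.95% higher. Among the 13 genes that did not need SF libraries 7 were called lower (COL1A1, COL1A2, COL6A2, COL8A1, LUM, BGN and PRELP), and the other 15 calls were in genes that did. With no filter on low values, 21 of all 36 genes were called lower and 0 higher, with a median log2 fold change of -1.10, where 6.97% of 24065 genes were called lower. With the filter, a further 2 genes had an unadjusted limma p under 0.05, COL12A1 lower in ISF (log2 fold change -0.90) and ACTA2 higher (1.42). The median log2 fold change was -1.33 over the 29 genes and -0.02 over all tested genes. The 22 comprised 4 of 5 tested fibrillar collagen genes, COL6A1, COL6A2, COL6A3 and COL8A1, 5 proteoglycan genes, FBN1, FBLN1, LOXL1 and LOXL2, MYL9, and all tested surface and transcription factor genes other than THY1.

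Of the genes in this paragraph, COL1A1, COL1A2, COL6A2, COL8A1, LUM and BGN passed the filter without SF libraries. The others needed SF libraries to pass, so their FDRs are given as a description and not as independent evidence of a fluid difference. Among the collagens, COL3A1 was lower in ISF by a log2 fold change of -3.38 (SE 0.81, limma FDR = 0.00158), COL1A2 by -3.23 (SE 0.83, FDR = 0.00289) and COL1A1 by -3.16 (SE 0.89, FDR = 0.00725), each in 6 of 7 horses, Moon being the exception. COL6A3 differed by -2.24 (SE 0.50, limma FDR = 0.000670), COL6A1 by -2.62 (FDR = 0.00126), COL6A2 by -2.39 (FDR = 0.00194), COL5A1 by -1.96 (FDR = 0.00628) and COL8A1 by -0.997 (FDR = 0.00655). The values are on the log2(GeTMM + 1) scale, which understates the change of genes at low levels. The proteoglycan DCN was lower by -2.41 (limma FDR = 0.00779), LUM by -2.31 (FDR = 0.00720), BGN by -1.93 (FDR = 0.0158) and OGN by -1.02 (FDR = 0.0100). Of the crosslinking and microfibril genes, LOXL1 was lower by -1.35 (limma FDR = 0.0105), LOXL2 by -0.95 (FDR = 0.0394), FBN1 by -1.42 (FDR = 0.00683) and FBLN1 by -0.84 (FDR = 0.00474). MYL9 was lower by -1.33 (limma FDR = 0.0467), and CDH11 by -1.29 (FDR = 0.000922), PDGFRB by -1.28 (FDR = 0.00168) and PRRX1 by -1.47 (FDR = 0.00932). PDGFRA had a log2 fold change of -0.87, but it reached 0.5 GeTMM in 7 libraries, all of them SF, and this value is given without its test. In all of these genes the groups overlapped, since Catnip, Moon or Ollie in SF lay within the ISF range.

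PRELP was the only one of the 29 genes whose SF and ISF libraries did not overlap at 10 days. The share of all tested genes without overlap is not given here, so this is a description. The log2 fold change of PRELP was -3.34 (SE 0.59, limma FDR = 1.98e-05), and it was lower in ISF in 7 of 7 horses. SPARC (-0.46, FDR = 0.442), LOX (0.07, FDR = 0.905) and THY1 (0.36, FDR = 0.777) did not pass the limma test, nor did ACTA2 (1.42, SE 0.60, FDR = 0.0853). SPARC changed sign without the SF well of Lurie, to 0.11 (limma FDR = 0.858).

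The calls at 10 days rested on a spread estimated over all 9 groups, and the wells spread far more in SF at 10 days than elsewhere. The median standard deviation of the 29 genes on the log2 scale was 1.98 in SF at 10 days and 0.69 in ISF at 10 days, against 0.15 in SF and 0.10 in ISF at 48 hours. With only the 14 libraries at 10 days in the fit, 1 of the 29 genes was called lower in ISF, PRELP (limma FDR = 0.000496), with the same fold changes, while 20.4% of all tested genes were called in either direction, against 20.8% in the fit of all groups. COL1A1 then had an FDR of 0.120 in limma, and COL3A1 0.0826. Without the SF well of Lurie, in the fit of all groups, 11 genes were called lower and ACTA2 higher (1.71, limma FDR = 0.0417). The median fold change of the stromal and matrix genes tested was then -0.78, and 18.6% of all tested genes were called in either direction. With the horse as a term, 23 were called lower and ACTA2 higher (limma FDR = 0.0154), where 27.1% of all tested genes were called in either direction. Leaving out all libraries of Dealings, Dreamer or Lurie left 13, 11 and 9 calls, of 25, 28 and 25 genes that still passed the filter.

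**Figure D3:**
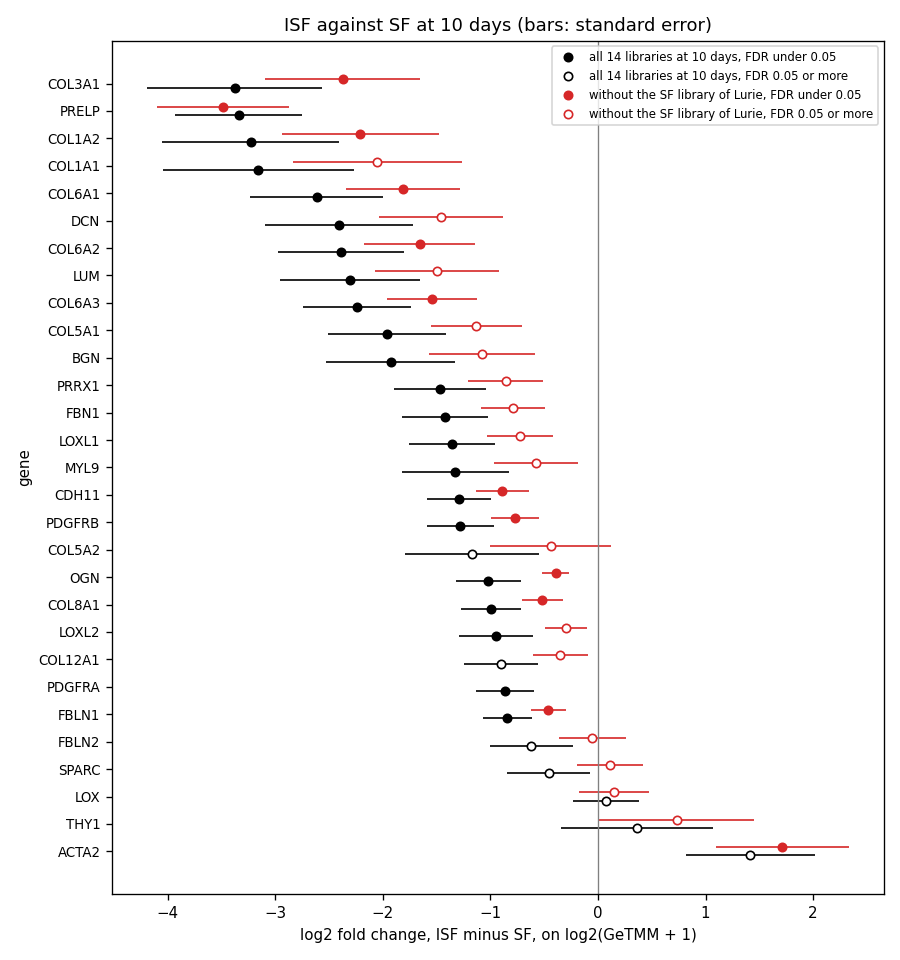
Log2 fold change of ISF against SF at 10 days (horizontal axis, on log2(GeTMM + 1)) for the 29 tested genes, with standard errors as bars, from all libraries (black) and without the SF well of Lurie (red; PDGFRA then did not pass the filter on low values), filled points marking an FDR under 0.05. Of the black points 22 are filled and of the red points 12, with PRELP near -3.4 in both.

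Earlier the fluids differed in few of these genes. At 48 hours 0 of 29 were called by limma in either direction, with 1 gene (ACTA2) at an unadjusted p under 0.05, where 0.872% of all tested genes were called higher in ISF and 0.81% lower. With the horse as a term 1 was called. At 96 hours ACTA2 was higher in ISF (log2 fold change 2.92, limma FDR = 0.000197) and LOX (-1.50, FDR = 0.000197) and PRELP (-1.77, FDR = 0.0266) were lower, where 6.16% of all genes were called higher and 4.3% lower. LOX was at 13.1 to 37.8 GeTMM in SF (median 16.4) and at 2.64 to 10.0 in ISF (median 7.31), without overlap and lower in 8 of 8 horses. Without the doubtful ISF libraries, ACTA2 (3.17, limma FDR = 0.000275, 6 of 6 horses) and LOX (-1.58, FDR = 0.000613, 6 of 6 horses, without overlap) were still called, with the same medians in ISF. PRELP then was not (-1.40, limma FDR = 0.154, lower in 5 of 6 horses), its median in ISF being 8.03 GeTMM in place of 4.84. At 6 days ACTA2 was higher in ISF (2.93, limma FDR = 4.38e-05) and PRELP lower (-3.46, FDR = 1.41e-06), where 16.7% of all genes were called higher and 13.6% lower. Without the SF library of Moon 4 genes were called at 6 days.

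With all libraries, ACTA2 had a median of 12.9 GeTMM in SF at 96 hours (4.47 to 52.4) and 125 in ISF (10.8 to 506), and of 32.3 in SF at 6 days (8.0 to 64.0) and 231 in ISF (46.0 to 619), higher in ISF in 8 of 8 horses at both times. PRELP had a median of 30.5 GeTMM in SF at 6 days (12.3 to 80.2) and 1.22 in ISF (0.090 to 18.4), with Moon, the highest ISF well, as the exception in which ISF was above SF. Both were called at times when none of the collagen genes was. At 6 days, however, 25 of the 29 genes had a negative fold change, with a median of -0.62 against 0 over all tested genes.

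**Figure D4:**
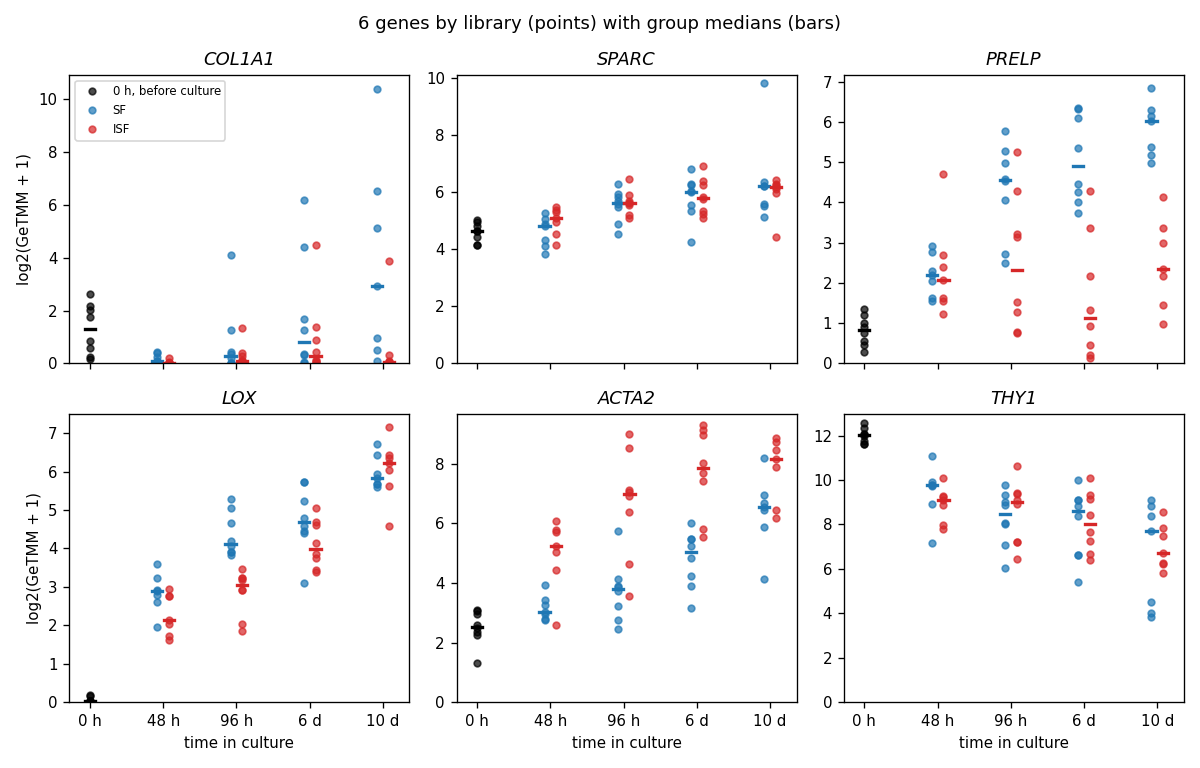
Levels of COL1A1, SPARC, PRELP, LOX, ACTA2 and THY1 as log2(GeTMM + 1) (vertical axis) in each library by time in culture (horizontal axis), with group medians as bars, 0 hours in black, SF in blue and ISF in red. COL1A1 spreads from near 0 to 1359 GeTMM in SF at 10 days, PRELP separates the fluids from 6 days on apart from the highest ISF well, and LOX is near 0 before culture and above 20 GeTMM in all wells at 10 days.

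Over the first 48 hours few of the genes changed. In SF 2 were called higher and 2 lower than at 0 hours, where 22.3% of all genes were called higher and 23.1% lower, and in ISF 3 were called higher and 2 lower, where 25.3% and 27.4% of all genes were called. LOX rose in both fluids, from 0 to 0.15 GeTMM before culture to 2.85 to 11.0 in SF (log2 fold change 2.79, limma FDR = 6.28e-12) and 2.10 to 6.70 in ISF (2.22, FDR = 4.30e-09). PRELP rose by 1.39 in SF (limma FDR = 0.0406) and 1.51 in ISF (FDR = 0.0212), and ACTA2 rose in ISF (2.47, FDR = 0.000282). THY1 fell in SF (-2.52, limma FDR = 0.00183) and ISF (-3.09, FDR = 0.000118), and so did FBLN1 (-0.69, FDR = 0.00792, and -0.71, FDR = 0.00489). When each pair of groups was fitted alone, 11 genes were called in SF, 8 of them lower, and 14 in ISF, 11 of them lower. The shares of all tested genes called in those fits are not given here, so the counts cannot be read as a loss of these genes in particular. Before culture COL1A1 was at 0.14 to 5.19 GeTMM (median 1.60) and COL1A2 at 0.14 to 4.55 (median 1.34), in libraries in which COL3A1 was near 0, and at 48 hours COL1A1 was at 0.35 GeTMM or less in both fluids.

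From 48 hours to 10 days in SF, 26 of the 29 genes rose and 1 fell, where 26.7% of all tested genes were called higher and 24.1% lower. The median log2 fold change of the 29 genes was 1.80, against 0.05 over all tested genes, and here too 16 of the 29 had needed SF libraries to pass the filter. COL6A3, COL12A1, OGN, FBN1, LOXL1, LOXL2, PDGFRA, PDGFRB, CDH11 and PRRX1 would not have passed it without the libraries at 10 days. Their tests are not independent of the time at which they were high, and counts over the 29 genes are a description. THY1 fell (-2.85, SE 0.71, limma FDR = 0.000588). The largest rises were in COL1A2 (3.81, SE 0.83, limma FDR = 9.92e-05), PRELP (3.63, SE 0.59, FDR = 5.27e-07) and COL3A1 (3.62, SE 0.81, FDR = 0.000166), and LOX rose by 3.13 (SE 0.31, FDR = 5.08e-13). Of the genes called, COL1A2, ACTA2, LOX and PRELP had SF libraries at 10 days that did not overlap those at 48 hours. Here too the share of all tested genes without overlap is not given. Only COL8A1 and FBLN2 were not called. In a fit of these 2 groups alone 17 genes were called higher and THY1 lower, where 53.6% of all tested genes were called in either direction. Without the SF well of Lurie 22 were called higher and THY1 lower, where 48.7% of all tested genes were called.

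In ISF over the same interval 4 genes rose and 1 fell, where 27.2% of all genes were called higher and 26.4% lower. LOX rose by 3.77 (SE 0.31, limma FDR = 4.02e-16), ACTA2 by 2.83 (FDR = 6.16e-05), COL5A2 by 1.47 (FDR = 0.0418) and SPARC by 0.96 (FDR = 0.0297), and THY1 fell (-1.92, FDR = 0.0186). The median log2 fold change was 0.22 over the 29 genes. Without the ISF well of Moon at 10 days 3 genes were called.

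The last interval carried part of this change. From 6 to 10 days in SF, LOX (1.23, limma FDR = 0.0109) and OGN (0.93, FDR = 0.0484) rose, each in 7 of 7 horses, where 3.19% of all genes were called higher and 1.59% lower. A positive fold change was found in 28 of the 29 genes (median 0.90, against 0.05 over all tested genes), and 18 had an unadjusted limma p under 0.05. The shares of all tested genes with that sign and under that p are not given here. The 29 include the genes named above that needed the 10-day libraries to pass the filter, so both counts are a description. With the horse as a term, 6 genes were called higher and 1 lower, and in a fit of these 2 groups alone 0 were called. OGN in SF at 10 days was at 0.14 to 0.61 GeTMM outside Lurie, which is 2 to 12 reads in a library, after 0 to 8 reads in the same horses at 6 days. Only the wells of Lurie, with 9 and then 430 reads, held a rise well above single reads, so the count of 7 of 7 horses says little for OGN. It was also among the genes that needed SF libraries to pass the filter. In ISF only LOX rose from 6 to 10 days (1.94, limma FDR = 1.07e-05), where 5.09% of all genes were called higher and 5.44% lower.

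Whether the fluid difference itself changed from 48 hours to 10 days was tested as an interaction. PRELP was called (-3.47, SE 0.83, limma FDR = 0.0102), as 1 of 29 genes with a lower and 0 with a higher difference, where 1.59% of all genes were called higher and 1.41% lower. The median interaction of the 29 genes was -1.32, against -0.006 over all tested genes, and 21 had an unadjusted limma p under 0.05. The share of all tested genes under that p is not given here, so the 21 are a description. With the horse as a term 4 genes were called, while without the libraries of Moon 15 were, all toward lower values in ISF, and without those of Ollie 0 were.

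Other genes of collagen and matrix biology, listed alongside, did not all go the same way. Of 16 tested collagen-processing genes, 7 were called higher and 3 lower in ISF than in SF at 10 days. P4HA1, a subunit of the prolyl hydroxylase that stabilizes the collagen helix, was at 187 to 552 GeTMM in ISF (median 330) and 78.5 to 287 in SF (median 85.2), with a log2 fold change of 1.74 (SE 0.26, limma FDR = 8.29e-07), and PPIB, a prolyl isomerase, differed by 0.41 (FDR = 0.120). Of 17 tested other matrix proteins, 2 were called higher and 7 lower. FN1 (fibronectin), which macrophages also make, was at 10.1 to 1356 GeTMM in SF (median 43.8) and 22.4 to 409 in ISF (median 111), a log2 fold change of 0.83 (limma FDR = 0.352), and VCAN (versican) was higher in ISF (1.72, FDR = 0.00156). P4HA1 and VCAN were thus higher in the fluid in which most of the collagen genes were lower.

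Of 8 tested marrow stroma genes 0 were called higher and 2 lower in ISF at 10 days. The 2 lower genes were CXCL12 (-1.92, limma FDR = 0.00148) and S1PR3 (-1.13, FDR = 0.000925), whereas the 2 genes of the list with the highest levels were not called. VCAM1, an adhesion protein of marrow stroma and macrophages, was at 41.0 to 233 GeTMM in SF and 129 to 807 in ISF (1.36, limma FDR = 0.0901), and ENG (endoglin), of stroma, endothelium and macrophages, at 118 to 168 and 150 to 335 (0.52, FDR = 0.0504). Of 3 tested cartilage and synovial fibroblast genes 1 was lower: CLU (clusterin) was at 0.37 to 652 GeTMM in SF (median 3.22) and 0.23 to 3.34 in ISF (-2.72, limma FDR = 0.00255), and COMP reached 6.70 GeTMM in its highest SF well. Of 5 tested osteoblast and fat genes 1 was higher and 3 lower. LPL (lipoprotein lipase), also made by macrophages, was at 161 to 583 GeTMM in SF and 663 to 1286 in ISF (1.39, limma FDR = 0.0451), and ALPL, an alkaline phosphatase of osteoblasts and neutrophils, was lower in ISF (-2.03, FDR = 0.00128). Of 4 tested pericyte and smooth muscle genes 0 were called in either direction, TPM2 reaching 183 GeTMM in its highest SF well (-1.37, limma FDR = 0.0704) and TPM1 differing by -0.19 (FDR = 0.267).

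Lists of other cell types were measured at 10 days as well. Of the 5 endothelial genes tested, 2 were lower in ISF, and PECAM1 differed by -0.35 (limma FDR = 0.0830). The T cell list was lower in ISF in 5 of 5 genes, with CD3D at -2.86 (limma FDR = 6.46e-06), and the neutrophil precursor list in 3 of 4. The macrophage list had 1 gene higher of 6, and CD68 differed by 0.25 (limma FDR = 0.245). Of 4 tested erythroid and 4 tested cell cycle genes 0 were called. The macrophage sum in the SF well of Lurie, 10685 GeTMM, was the lowest of the 14 libraries at 10 days, and its cell cycle sum of 75.0 GeTMM lay within the range of the others (18.8 to 150), the highest being the ISF well of Moon. The part of these cells in the stromal and matrix levels was not tested.

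The genes outside the list whose levels followed the mean of the 36 most closely over the 14 libraries at 10 days were MXRA5, EFEMP2, AEBP1, GPX8, PCOLCE, TPM2, CLU, COL4A2, CTHRC1 and FKBP10, out of 8539 genes with a mean of at least 5 GeTMM (Pearson r = 0.938 to 0.983 on the log2 scale). All 10 were highest in the SF well of Lurie, from 60.1 GeTMM for GPX8 to 652 for CLU. That well, in which most of the 36 genes were highest, entered both the minimum mean and the ranking. The shared peak is therefore not independent of how the genes were chosen. Without that well, over 13 libraries, the coefficients of these same genes, already chosen with it, ran from 0.784 (FKBP10) to 0.946 (AEBP1). MXRA5, a matrix protein, was at 68.2 GeTMM in the SF well of Lurie against a median of 0.26 over the SF wells. CTHRC1, a secreted protein of activated fibroblasts, was at 131 GeTMM in its highest SF well and at 12.4 in its highest ISF well. PCOLCE, which enhances the cleavage of procollagen, was at 172 GeTMM in its highest SF well against a median of 3.11.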

How the data were processed

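The authors trimmed the stranded reads, mapped them to EquCab3.0 with STAR 2.7.2a, counted them per gene and deposited them as GeTMM, an RPKM-like value (reads per kilobase, scaled with edgeR's TMM factors). Rows were matched to the genes by symbol. The genes and all other lists were chosen with earlier results of these data known. Reads on genes were recovered from the steps between values, which gave whole reads within 0.02 for 24064 of 24065 genes above 0 (99.9958%).

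Groups were taken from the labels. The 14570 genes that reached 0.5 GeTMM in 7 or more libraries were tested as log2(GeTMM + 1) with limma 3.58.1 in R 4.3.3 (lmFit, eBayes with a trend, tested on simulated data), in 1 fit of 68 libraries and 9 groups without a term for horse, two-sided, with Benjamini-Hochberg adjustment over all tested genes. P-values measure the spread between horses within a group, 1 well each, pooled over the 9 groups. They treat the libraries of a horse in different groups as independent. Horse names pair the libraries, since they come from the same animal. Deviations of the SF and ISF libraries of a horse correlated, at 48 hours, with coefficients of 0.41 to 0.56. The coefficients were -0.22 to 0.51 after 96 hours, 0.15 to 0.55 after 6 days, and 0.074 to 0.36 after 10 days. Those below 0 at 96 hours belonged to Dealings (-0.015) and Dreamer (-0.22), whose ISF libraries at that time are doubtful. The other horses lay between 0.34 and 0.51 at 96 hours. Alternatives changed the pseudocount, filter, horse term, libraries, groups fitted, weights and scaling. Values are given in every library at 10 days for the 2 genes of each role with the highest mean there, fold changes for these and for every gene called between fluids, and other lists by counts and their 2 highest genes; further genes named were chosen after their values were seen. Python 3.11.15, numpy 2.4.6, pandas 2.3.3, scipy 1.17.1 and matplotlib 3.10.9 were used.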

Additional observations from a re-analysis of the deposited data

Results flagged for a closer look

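In groups of 7 libraries, a library was marked where its gap to the nearest other, divided by the range of the group, was above Dixon's critical value. Chance alone marks about 1 in 20 such groups where values are normally distributed. The values used were GeTMM without a log transform, which are skewed, so that rate does not hold here, and the genes are not independent of each other. Of 52 groups looked at, 40 were marked. The SF well of Lurie at 10 days was marked for 22 genes. Among the collagens these were, in GeTMM, COL1A1 (1359), COL1A2 (1039), COL6A2 (254.), COL6A1 (217.), COL3A1 (986.), COL5A1 (154.), COL6A3 (95.3) and COL8A1 (18.5). The others were DCN (422.), SPARC (906.), ACTA2 (291.), MYL9 (71.9), PRRX1 (43.9), BGN (275.), FBLN1 (8.18), FBN1 (41.7), LOXL1 (38.03), LOXL2 (35.8), LUM (232.), OGN (28.6), PDGFRA (14.8) and PDGFRB (21.7).

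The ISF well of Moon at 10 days was marked for 17 genes, at much lower levels. The collagens were, in GeTMM, COL1A1 (13.6), COL1A2 (12.1), COL6A1 (2.14), COL3A1 (6.72), COL5A1 (2.92), COL6A3 (0.826) and COL8A1 (0.737), and the others were DCN (6.05), MYL9 (3.77), CDH11 (0.521), FBLN1 (0.346), FBN1 (1.21), LOXL1 (1.16), LUM (10.8), OGN (0.341), PDGFRA (0.299) and PDGFRB (0.496). For SPARC the marked ISF well was that of Dreamer, which was the lowest at 20.5 GeTMM.

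The difference between the fluids changed from 48 hours to 10 days for PRELP, with an interaction of -3.47 on the log2(GeTMM + 1) scale (SE 0.83, limma FDR = 0.0102).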

How the results depend on the processing

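Counts of the 29 tested genes called, in either direction, are given under each alternative where they changed by more than 1.5 times. Shares of all tested genes under the alternatives are given above only for some fits. Those fits are of the fluids at 10 days and of SF from 48 hours to 10 days. The other counts are a description. For ISF against SF at 10 days (22), 1 was called with only the groups compared and 12 without the SF well of Lurie at 10 days. At 6 days (2), 4 were called with a pseudocount of 0.1, without the SF library of Moon and with library weights, and 7 without the SF well of Lurie at 10 days. At 48 hours (0), 1 was called with the horse as replicate block, with only the groups compared and with library weights. Against 0 hours, fits of only the groups compared called 11 at 48 hours in SF (4) and 14 in ISF (5), and a pseudocount of 0.1 called 8 in ISF. From 6 to 10 days in SF (2), the horse as replicate block called 7, fits of only the groups compared and library weights called 0, and 1 was called with no filter, with median-ratio scaling, with the 6-day SF library of Moon left out, with the doubtful 96-hour ISF libraries left out and with the SF well of Lurie left out. From 48 hours to 10 days in ISF (5), 3 were called without the ISF well of Moon. For the interaction (1), the horse as replicate block called 4, library weights and the fit that omitted the 6-day SF library of Moon called 3, and the fit without the ISF well of Moon called 2. With each horse left out in turn, the counts ran from 0 to 1 (ISF against SF at 48 hours), 2 to 3 (96 hours), 2 to 3 (6 days), 9 to 24 (10 days), 1 to 2 (SF, 6 to 10 days), 3 to 5 (ISF, 48 hours to 10 days) and 0 to 15 (interaction). The cause was not tested. The horse as replicate block moved no other count by more than 1.5 times. At 10 days the log2 fold change of SPARC ran from -0.69 to 0.072 with a horse left out and was 0.11 without the SF well of Lurie, that of LOX from -0.16 to 0.27 and that of THY1 from -0.13 to 0.78. The 2 alternatives that leave out the wells of Lurie and Moon at 10 days were chosen after seeing the data. Levels near the worth of 1 read limit what can be read from the wells in which these genes were low.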
